A study of Mus musculus with 57 samples.

Results

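Atf4, Ddit3, Trib3, Asns, Chac1, Fgf21, Gdf15, Psat1, Phgdh and Mthfd2, genes of the integrated stress response that centre on the transcription factor ATF4, were taken by symbol from both count tables. They are 10 of the 25416 genes counted in the acute study and of the 54658 counted in the chronic study. All hearts came from male wild-type C57BL/6J mice, bought from a different supplier in each study, and the study names no engineered change in them. In the acute study, 13 Doxo hearts came from mice given 1 intraperitoneal injection of doxorubicin (Doxo), an anthracycline chemotherapeutic that damages the heart, at 20 mg/kg. The 13 Doxo-NMN hearts came from mice that also received nicotinamide mononucleotide (NMN), a precursor of NAD+, at 180 mg/kg per day by injection from 5 days before Doxo. The 14 Ctrl hearts came from mice given saline, and all acute hearts were taken on day 5 after Doxo. In the chronic study, Doxo was given as 5 injections of 4 mg/kg within 2 weeks, NMN was given in drinking water at 500 mg/kg per day from 5 days before the first injection, and hearts were taken on day 60, with 5 Ctrl, 6 Doxo and 6 Doxo-NMN hearts. The acute mice were bought at 9 weeks of age and the chronic mice were 14 to 16 weeks old at injection. Neither study had a group given NMN without Doxo, so Doxo-NMN was compared with Doxo and with Ctrl only. Over all its acute cohorts the study reports that no Ctrl mouse died, and that fewer Doxo than Doxo-NMN mice survived. Acute Doxo mice also lost more weight than Doxo-NMN mice. Some mice of both treated groups died in the chronic study as well. The treated groups sequenced were therefore survivors, and the part of this selection in the group differences was not tested.

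In the integrated stress response, kinases that sense endoplasmic reticulum stress, amino acid shortage, heme deficiency or viral RNA phosphorylate the translation factor eIF2alpha. Most protein synthesis then slows, while translation of the Atf4 mRNA rises, and ATF4 protein turns on genes for amino acid synthesis and import, redox balance and, with its target CHOP (Ddit3), cell death. In heart muscle this response is known from mitochondrial disease, in which ATF4, serine synthesis enzymes and the secreted factors FGF21 and GDF15 rise together. These data hold mRNA only, so neither phosphorylation of eIF2alpha nor ATF4 protein was measured.

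ATF4 binds, with C/EBP proteins, an element whose core is written here as TGATGNAA, with N for any base. This motif was searched on both strands in the RefSeq promoters of GRCm38.p6, which run from 250 bases before to 50 bases after each start. It was found in 3.97% of all 32851 promoters, and in 3.45% when only the 250 bases before the start were searched. All 10 genes had a promoter entry, and 3 of them, Asns, Chac1 and Fgf21, held a match before the start. Trib3 held one at 15 to 22 bases after the start. A match is a description of the letters and is not a measured binding site, and genes without one in this window may carry elements elsewhere. The 250 bases before the start are shown for Chac1 and Fgf21, which hold a match, and for Atf4 and Psat1, the members with the largest differences in the acute study, which hold none. For Asns, whose GENCODE gene model begins further upstream than its RefSeq start, only 30 bases around the match are shown. The GENCODE gene of Psat1 also begins upstream of its stretch, which holds no exon bases. In the stretch of Chac1, 13 bases lie in a GENCODE exon. All run 5′ to 3′ on the strand of the gene, in lower case with the match in capitals. The capitals of Chac1 and Fgf21 read as the reverse complement because their match lies on the other strand.
Chac1 (chr2:119350992-119351241, plus strand, match 193 to 186 bases before the start): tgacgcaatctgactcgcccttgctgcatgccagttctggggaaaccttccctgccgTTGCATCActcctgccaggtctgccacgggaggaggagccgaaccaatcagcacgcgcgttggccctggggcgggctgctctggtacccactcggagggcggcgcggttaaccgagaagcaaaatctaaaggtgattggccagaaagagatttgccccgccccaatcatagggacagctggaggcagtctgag
Asns (chr6:7693214-7693243, minus strand, match 23 to 16 bases before the start): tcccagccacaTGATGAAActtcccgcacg
Fgf21 (chr7:45615491-45615740, minus strand, match 139 to 132 bases before the start): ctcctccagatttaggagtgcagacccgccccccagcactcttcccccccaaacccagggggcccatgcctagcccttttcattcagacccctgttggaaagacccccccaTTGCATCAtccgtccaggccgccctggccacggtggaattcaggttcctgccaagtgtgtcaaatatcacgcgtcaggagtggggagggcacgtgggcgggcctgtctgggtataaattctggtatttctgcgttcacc
Atf4 (chr15:80254934-80255183, plus strand, no match): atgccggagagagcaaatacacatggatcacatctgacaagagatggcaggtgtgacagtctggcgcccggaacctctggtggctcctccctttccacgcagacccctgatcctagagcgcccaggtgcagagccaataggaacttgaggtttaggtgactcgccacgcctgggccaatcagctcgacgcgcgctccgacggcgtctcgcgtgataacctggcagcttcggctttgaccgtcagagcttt
Psat1 (chr19:15925060-15925309, minus strand, the first of its starts in the table, no match): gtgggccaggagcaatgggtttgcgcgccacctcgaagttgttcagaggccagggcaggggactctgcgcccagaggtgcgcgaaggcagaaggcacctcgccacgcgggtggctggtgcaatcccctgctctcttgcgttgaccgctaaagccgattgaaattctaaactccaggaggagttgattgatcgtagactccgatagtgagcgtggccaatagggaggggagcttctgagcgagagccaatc

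Library totals were 32409622 to 52102850 counts per acute heart and 17769886 to 23862287 per chronic heart. Levels are in CPM, each count scaled to the TMM-normalized total of its library. A count of 3, used as the floor of detection, corresponded to 0.0576 to 0.0926 CPM in the acute and 0.126 to 0.169 CPM in the chronic hearts, and this floor covers counting error only. Among low counts of the acute table most were even, so acute totals and the counts given for single genes may overstate the number of fragments and the acute floor may be too low. With acute counts divided by 2, each member kept its call or lack of one in the 3 acute comparisons (edgeR). Doxo replicate 6 of the acute study lay with the Ctrl hearts. On a scale from the Ctrl mean (0) to the Doxo mean (1) over all called genes other than the members, it stood at 0.0369, against -0.0376 to 0.0442 in Ctrl and a median of 1.10 in Doxo. Fold changes without it are therefore also given. Some hearts carried atrial transcripts, read from the atrial light chain Myl4, at 100 CPM or more in 8 Ctrl, 5 Doxo and 4 Doxo-NMN acute hearts and in none of the chronic hearts, and differences within both sets of acute hearts are given for called members, and for others where an adjusted p crossed 0.05 or the difference moved by more than 1 SE.

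In unstressed hearts the members spanned a wide range. In acute Ctrl hearts, levels per length (RPKM, the CPM per kilobase of exon) were highest for Atf4 (26.1 ± 3.31, SD, n = 14), followed by Ddit3 (7.72 ± 1.13), Chac1 (2.34 ± 0.642) and Trib3 (1.28 ± 0.178). Gdf15 (1.0 ± 0.340) and Mthfd2 (0.979 ± 0.218) had levels per length that lay within each other's SD, as did Asns (0.839 ± 0.184) with both. Phgdh (0.611 ± 0.158) and Psat1 (0.569 ± 0.0903) were likewise not separated by their spread. Fgf21 was lowest at 0.0435 ± 0.0443 RPKM. In chronic Ctrl hearts Atf4 (34.9 ± 1.94 RPKM, n = 5) and Ddit3 (15.5 ± 3.68) were again the highest and Fgf21 (0.0324 ± 0.0473) the lowest. The tables were counted and sequenced separately, so levels were not compared between the studies.

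On day 5 after Doxo, Atf4 and Psat1 mRNA were both raised, Chac1 was raised less, and Phgdh was lowered, while Asns, Gdf15, Ddit3, Trib3 and Mthfd2 did not reach the call. A gene was called in the acute study at an adjusted p under 0.05 (edgeR quasi-likelihood test with Benjamini-Hochberg adjustment over 14240 genes) and a fold change of at least 1.5. Of the 9 members tested, 4 were called between Doxo and Ctrl, 3 higher and 1 lower. Over all genes tested, 30.1% were called, 14.7% higher and 15.4% lower, so this count lay close to that of all genes. By adjusted p alone, 7 of the 9 passed, 4 higher and 3 lower, against 68.1% of all genes, 34.8% higher and 33.3% lower. The median log2 fold change over the 9 members was 0.42, against -0.00157 over all genes tested. Fgf21 was not tested because its counts were too low.

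**Figure D1:**
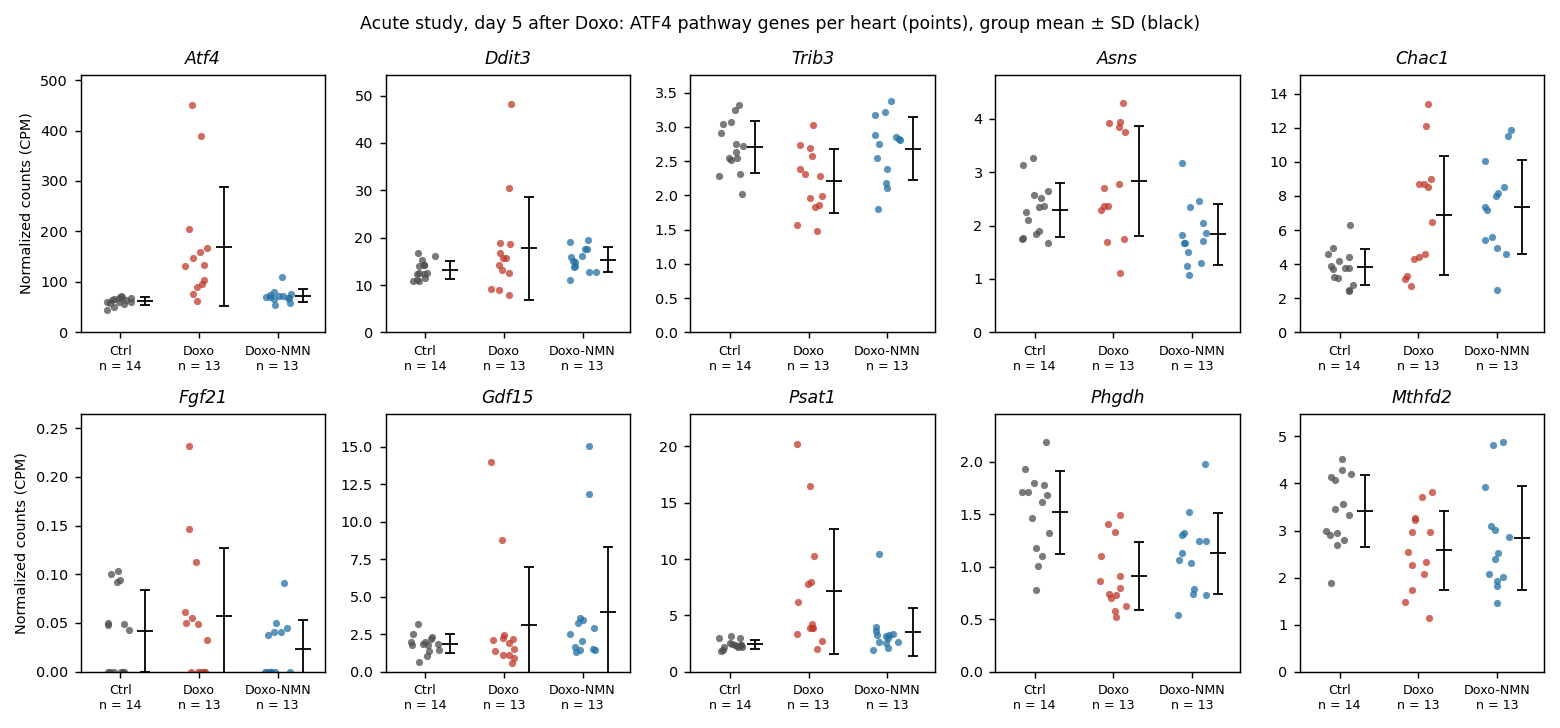
Each panel plots normalized counts (CPM, linear axis from 0) of 1 gene, with 1 point per acute heart in Ctrl (n = 14), Doxo (n = 13) and Doxo-NMN (n = 13), and the group mean ± SD in black beside the points (bars that would pass below 0 are cut there). Atf4 reached 451 CPM in Doxo but stayed at or below 109 CPM in Doxo-NMN, and Gdf15 was set apart by 2 hearts in each treated group.

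Atf4 (ENSMUSG00000042406, chromosome 15, 80255184 to 80257541, plus strand, GRCm38), the activating transcription factor of the response, had 43.9 CPM in the lowest, 62.2 in the median and 71.7 in the highest of 14 Ctrl hearts. In the 13 Doxo hearts the lowest was 62.7, the median 133 and the highest 451 CPM. All but replicate 6 lay above every Ctrl heart (12 of 13), with the highest levels in replicates 5 (451 CPM) and 4 (388 CPM). The fold change was 2.76 (log2 1.47 ± 0.201, SE, adjusted p = 6.72e-08, edgeR). The Doxo mean was 170 ± 118 CPM, or 179 ± 119 CPM without replicate 6. The difference was also called within hearts low in Myl4 (log2 1.61) and within hearts high in Myl4 (log2 1.10).

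Ddit3 encodes CHOP, a transcription factor that ATF4 induces and that promotes apoptosis when stress persists. It had 10.9 to 16.7 CPM in Ctrl with a median of 12.6, and 7.82 to 48.2 CPM in Doxo with a median of 15.6. Only replicates 4 (48.2 CPM) and 5 (30.6 CPM) exceeded 20 CPM, and they were the same hearts that held the most Atf4. In contrast, replicates 8, 11 and 13 had 7.82, 8.98 and 9.23 CPM, below every Ctrl heart, although their Atf4 levels were 133, 159 and 147 CPM. The log2 difference of 0.42 ± 0.174 (adjusted p = 0.0318, edgeR) was under the fold threshold, and without replicate 4 it was 0.19 (adjusted p = 0.208, edgeR). The Ddit3 difference was 0.50 within hearts low in Myl4 (adjusted p = 0.146) and 0.22 within those high in Myl4 (adjusted p = 0.212, edgeR). The gene (chromosome 10, 127290774 to 127296288) has a second overlapping record in GENCODE and its end overlaps Mars on the other strand, so its reads may be shared with these, since it is not stated whether counting used strand.

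Trib3, a pseudokinase that ATF4 and CHOP induce and that in turn holds ATF4 activity down, had 2.02 to 3.32 CPM in Ctrl and 1.48 to 3.02 CPM in Doxo. It was under the lowest Ctrl heart in 6 of the 13 Doxo hearts and above the highest in none. The log2 difference was -0.29 ± 0.106 (adjusted p = 0.0134, edgeR), below the fold threshold. For Trib3 it was -0.40 within hearts low in Myl4 (adjusted p = 0.0255) and -0.14 within those high in Myl4 (adjusted p = 0.433, edgeR).

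**Figure D2:**
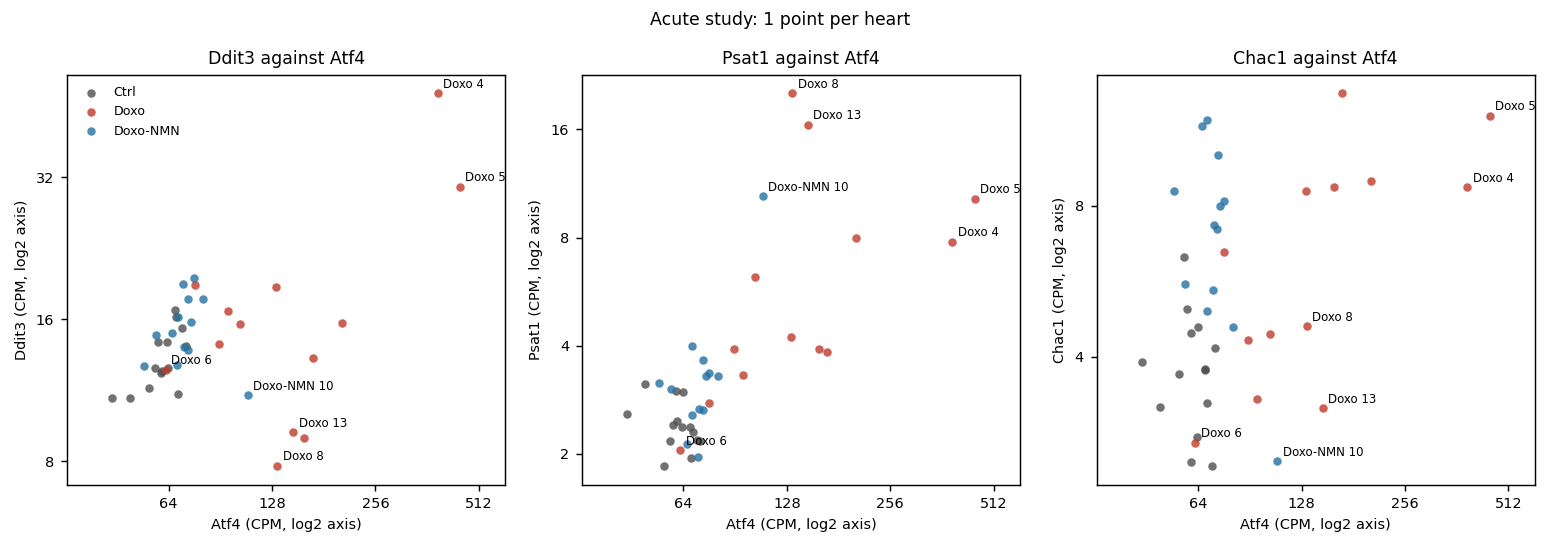
Points are single acute hearts in CPM on log2 axes, coloured by group, with Atf4 on the x axis and Ddit3, Psat1 or Chac1 on the y axis. Doxo replicates 4 and 5 were high in Atf4 and Ddit3, whereas replicates 8 and 13 had the most Psat1 with Ddit3 under the Ctrl hearts.

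Psat1 and Phgdh, the members of the serine synthesis pathway, moved in opposite directions. Psat1 (chromosome 19), the phosphoserine aminotransferase of the second step, had 1.85 to 3.13 CPM in Ctrl with a median of 2.37. In Doxo it had 2.04 to 20.2 CPM with a median of 4.22, and 11 of 13 Doxo hearts lay above every Ctrl heart. The highest Psat1 levels were in replicates 8 (20.2 CPM) and 13 (16.5 CPM), not in the hearts with the most Atf4, replicates 4 (7.80 CPM) and 5 (10.2 CPM). The fold change was 2.95 (log2 1.56 ± 0.269, adjusted p = 3.95e-06, edgeR). Within hearts low in Myl4 it was log2 2.05, and within those high in Myl4 log2 0.69, both called. Phgdh (chromosome 3), the dehydrogenase that commits carbon to serine in the first step, went the other way. It had 0.776 to 2.19 CPM in Ctrl and 0.524 to 1.495 CPM in Doxo, with 6 of 13 Doxo hearts under the lowest Ctrl heart and none above the Ctrl median. Its log2 fold change was -0.74 ± 0.181 (1.67-fold lower, adjusted p = 4.91e-04, edgeR), and its mean in Doxo rested on 16 to 77 counts per heart. Within hearts low in Myl4 the Phgdh difference was -0.56 with an adjusted p of 0.0630, and within those high in Myl4 it was -0.72 with an adjusted p of 0.00540.

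Asns, the asparagine synthetase, had 1.67 to 3.27 CPM in Ctrl and 1.11 to 4.29 CPM in Doxo. It lay above every Ctrl heart in 5 and below every Ctrl heart in 1 of the 13 Doxo hearts, and the log2 difference of 0.30 ± 0.168 did not pass the test (adjusted p = 0.111, edgeR). Mthfd2, the mitochondrial folate enzyme that makes one-carbon units for nucleotides, had 1.88 to 4.53 CPM in Ctrl and 1.15 to 3.83 CPM in Doxo. No Doxo heart exceeded the highest Ctrl heart, and the log2 difference was -0.40 ± 0.176 (adjusted p = 0.0423, edgeR), below the fold threshold. The Mthfd2 difference did not pass within hearts low (-0.28, adjusted p = 0.368) or high in Myl4 (-0.40, adjusted p = 0.0658, edgeR). Mthfd2 overlaps the predicted gene Gm43890, with which its reads may be shared.

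Chac1, which degrades the antioxidant glutathione and is a target of ATF4 and CHOP, had 2.42 to 6.32 CPM in Ctrl with a median of 3.77. In Doxo it had 2.69 to 13.4 CPM with a median of 6.46, and 7 of 13 hearts lay above every Ctrl heart. The fold change was 1.79 (log2 0.84 ± 0.221, adjusted p = 0.00103, edgeR), and the Doxo mean of 6.88 ± 3.49 CPM was 7.23 ± 3.40 CPM without replicate 6. Its highest level was in replicate 12, and replicates 8 (4.597 CPM) and 13 (3.15 CPM), which had the most Psat1, lay within the Ctrl range. Within hearts high in Myl4 the Chac1 difference was log2 1.19 and called, but within hearts low in Myl4 it was log2 0.53 with an adjusted p of 0.205.

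The secreted factors differed in how well they were detected. Fgf21, a hormone that liver and stressed muscle release, had at most 10 counts in any acute heart and fewer than 3 counts in 10 of 14 Ctrl, 10 of 13 Doxo and 12 of 13 Doxo-NMN hearts. It was at 0 in 6 Ctrl, 5 Doxo and 7 Doxo-NMN hearts, so a difference was not detectable at this depth, and no fold is given. Gdf15 (chromosome 8), a cytokine that acts on the brainstem to suppress appetite, had 0.613 to 3.21 CPM in Ctrl with a median of 1.82 and 0.576 to 13.96 CPM in Doxo with a median of 1.90. Only replicates 5 (13.96 CPM) and 8 (8.80 CPM) exceeded the Ctrl hearts, and the log2 difference of 0.73 ± 0.418 did not pass the test (adjusted p = 0.116, edgeR). Thus the Doxo mean of 3.09 ± 3.87 CPM was set by 2 of 13 hearts. The Gdf15 difference was 0.95 within hearts low in Myl4 (adjusted p = 0.199) and -0.22 within those high in Myl4 (adjusted p = 0.538, edgeR).

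No single heart led in every member. Over the 9 members tested, replicate 5 was among the 3 highest Doxo hearts for 7, replicate 13 for 4, and replicates 1 and 7 for 3 each. Replicate 6 was the lowest Doxo heart for 3 members, Atf4, Chac1 and Psat1, and the highest for Phgdh. Without replicate 6 the same 4 members were called between Doxo and Ctrl, with log2 differences of 1.54 for Atf4, 1.64 for Psat1, 0.91 for Chac1 and -0.82 for Phgdh. Those of Ddit3 (0.45), Trib3 (-0.30), Asns (0.32), Mthfd2 (-0.43) and Gdf15 (0.82) were again not called. Between Doxo-NMN and Doxo the same 3 members were called without it, at -1.30 for Atf4, -1.09 for Psat1 and -0.64 for Asns.

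With NMN, Atf4, Psat1 and Asns were lower than with Doxo alone, whereas Chac1 and Gdf15 did not pass the test. Both groups were survivors of treatments that differed in mortality, so these differences may include selection. Of the 9 members, 3 were called between Doxo-NMN and Doxo, all lower, against 17.1% of all genes called, 8.17% higher and 8.88% lower. By adjusted p alone 4 of 9 passed, against 53% of all genes (25.7% higher and 27.4% lower), the fourth being Trib3. The median log2 fold change over the members was 0.10, against -0.000827 over all genes tested.

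Atf4 had 54.2 to 109 CPM in Doxo-NMN with a median of 71.0. No Doxo-NMN heart reached the Doxo median of 133 CPM, 2 of 13 lay below every Doxo heart, and replicate 10 (109 CPM) was the highest. The level was 2.35-fold lower than with Doxo alone (log2 -1.23 ± 0.204, adjusted p = 9.40e-06, edgeR), and was called within hearts low (-1.36) and high in Myl4 (-1.004). Psat1 had 1.95 to 10.4 CPM with a median of 3.14, and replicate 10 alone exceeded 4 CPM. It was 2.01-fold lower (log2 -1.01 ± 0.271, adjusted p = 0.00206, edgeR). Within hearts low in Myl4 the Psat1 difference was -1.30, and within hearts high in Myl4 it was -0.33 with an adjusted p of 0.168. Asns had 1.07 to 3.17 CPM with a median of 1.70, and 12 of 13 Doxo-NMN hearts lay at or below the Doxo median of 2.69 CPM. It was 1.54-fold lower (log2 -0.62 ± 0.173, adjusted p = 0.00277, edgeR). Asns thus lay just past the fold threshold, and without Doxo replicate 4, 5, 11, 12 or 13 or Doxo-NMN replicate 4 or 11 it fell under 1.5-fold, with log2 differences of -0.58, -0.57, -0.58, -0.56, -0.57, -0.58 and -0.57. Within hearts low in Myl4 the Asns difference was -0.65 and called, and within hearts high in Myl4 it was -0.51 with an adjusted p of 0.159.

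Chac1 was not called between Doxo-NMN and Doxo. It had 2.47 to 11.9 CPM in Doxo-NMN with a median of 7.33, and its difference from Doxo was log2 0.10 ± 0.223 (adjusted p = 0.726, edgeR), with 0.36 within hearts low and -0.30 within hearts high in Myl4, neither passing. Ddit3 had 11.1 to 19.5 CPM in Doxo-NMN, without the high and low hearts of the Doxo group, and its log2 difference was -0.20 ± 0.177 (adjusted p = 0.344), or -0.33 and 0.05 within hearts low and high in Myl4, neither passing. Trib3 was higher by log2 0.28 ± 0.107 (adjusted p = 0.0261, edgeR), under the fold threshold, with 1.80 to 3.38 CPM. The Trib3 difference was 0.44 within hearts low in Myl4 (adjusted p = 0.0149) and 0.00044 within those high in Myl4 (adjusted p = 0.999, edgeR). Phgdh (log2 0.30 ± 0.185), Mthfd2 (0.13 ± 0.180) and Gdf15 (0.38 ± 0.419) did not pass, and Mthfd2 was at 0.03 within hearts low and 0.35 within hearts high in Myl4. Gdf15 was again set apart by 2 hearts, Doxo-NMN replicates 8 (15.1 CPM) and 10 (11.9 CPM), with the other hearts at 1.33 to 3.61 CPM. Fgf21 had at most 4 counts in any Doxo-NMN heart.

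Compared with Ctrl, Doxo-NMN hearts had more Chac1, and Gdf15 was also called higher but lost its call on leaving out single hearts. Chac1 and Gdf15 were 2 of 9 members called, both higher, against 7.11% of all genes called, 3.31% higher and 3.79% lower. By adjusted p alone the same 2 of 9 passed, against 26% of all genes. Chac1 was 1.92-fold higher (log2 0.94 ± 0.221, adjusted p = 0.00171, edgeR), with 8 of 13 Doxo-NMN hearts above every Ctrl heart. Within hearts low in Myl4 it was log2 0.89 with an adjusted p of 0.104, and within hearts high in Myl4 log2 0.89 with an adjusted p of 0.0215. Gdf15 was 2.16-fold higher (log2 1.11 ± 0.417, adjusted p = 0.0436, edgeR), and without Doxo-NMN replicate 8 it was log2 0.74 (adjusted p = 0.171) and without replicate 10 log2 0.85 (adjusted p = 0.127). The call was also lost on leaving out Doxo-NMN replicate 13 or any of Ctrl replicates 1, 2, 3, 4, 5, 9, 10, 11, 12 and 14, with log2 differences that stayed between 1.04 and 1.12. Within hearts high in Myl4 the Gdf15 difference was log2 0.065 (adjusted p = 0.923), within hearts low in Myl4 1.24 (adjusted p = 0.203), and with Myl4 as a covariate 0.76 (adjusted p = 0.173, edgeR), so it was called in none of these. Atf4 (log2 0.24 ± 0.198, adjusted p = 0.394) and Psat1 (0.55 ± 0.268, adjusted p = 0.123) did not pass the test, although 6 and 7 of 13 Doxo-NMN hearts lay above every Ctrl heart. Phgdh was at log2 -0.43 ± 0.179 (adjusted p = 0.0683, edgeR) and did not pass, and nor did Ddit3 (0.22 ± 0.174). Within hearts high in Myl4 the differences of Trib3 (-0.14), Asns (-0.15) and Mthfd2 (-0.05) were more than 1 SE from those over all hearts, and none passed. This comparison and the 2 others of the acute study share their hearts and are not independent.

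**Figure D3:**
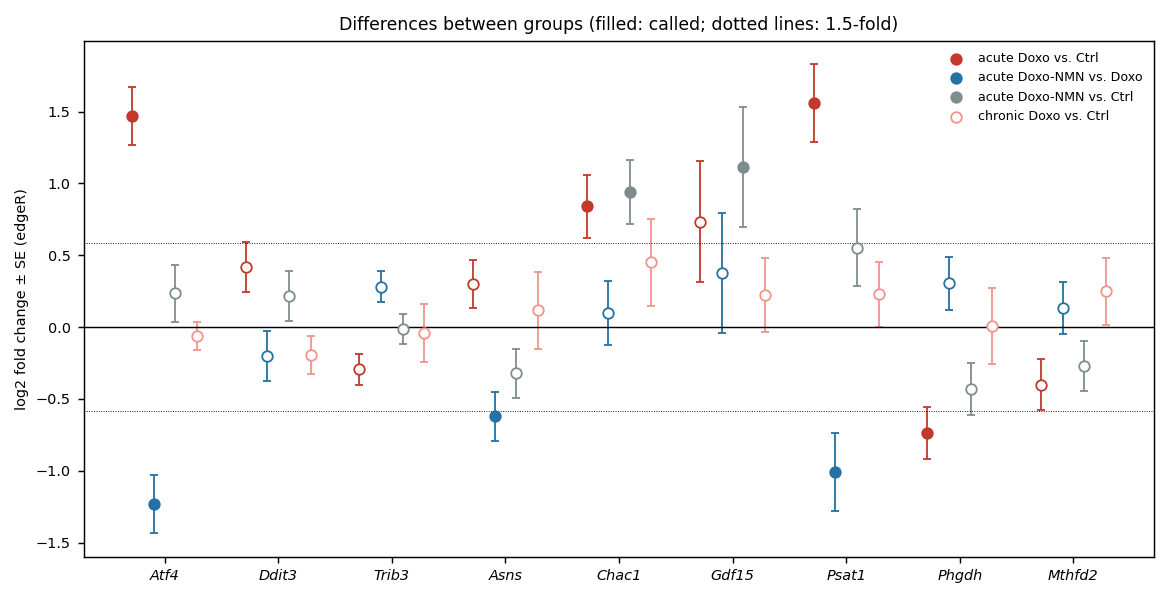
The y axis gives the log2 fold change ± SE (edgeR) of each of the 9 members tested, for 3 acute comparisons and chronic Doxo vs. Ctrl, with filled points for genes called and dotted lines at 1.5-fold. Atf4 and Psat1 were higher with Doxo (1.47 and 1.56) and lower with NMN than with Doxo alone (-1.23 and -1.01), Chac1 was higher in both treated groups than in Ctrl, and no chronic value was called.

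Among 99 tested entries of 9 further lists around the pathway, 36 were called between acute Doxo and Ctrl, which is 36.4% against 30.1% of all genes. Atf5 stands in both the transcription factor list and the mitochondrial stress list and is counted in each. Over all genes, 14.7% were called higher and 15.4% lower. The list of other ATF4 or CHOP targets had 8 of 12 called higher and none lower, with a median log2 difference of 1.03. By adjusted p alone the list had 8 higher and 2 lower, against 34.8% and 33.3% of all genes. Its largest were Tnfrsf10b, a death receptor that CHOP induces (log2 1.95 ± 0.275), and Sqstm1, an autophagy receptor (1.82 ± 0.208). Of 10 amino acid transporters tested, 6 passed higher and 1 lower by adjusted p alone, and 5 were called higher and none lower. These were Slc7a11, the cystine importer (2.89 ± 0.610), Slc3a2, the shared heavy chain of several importers (1.41 ± 0.138), Slc7a5 (1.05 ± 0.179), Slc38a2 (0.88 ± 0.165) and Slc6a9 (0.63 ± 0.148). Slc7a11 had at most 0.263 CPM in Ctrl and up to 6.92 CPM in Doxo, with 7 of 13 Doxo hearts above every Ctrl heart.

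Of 10 genes for eIF2alpha kinases, eIF2alpha, its phosphatases and proteins that act with them, 3 were higher and 1 was lower, against 14.7% and 15.4% of all genes. Ppp1r15a, which encodes GADD34, the phosphatase subunit that reverses eIF2alpha phosphorylation, was higher by log2 1.57 ± 0.160, with 12 of 13 Doxo hearts above every Ctrl heart. Eif2b5, a subunit of the exchange factor that phosphorylated eIF2alpha blocks (0.69 ± 0.0745), and Eif2ak4, the amino acid-sensing kinase GCN2 (0.67 ± 0.0808), were higher, and the adaptor Nck1 was lower (-0.64 ± 0.0974). Of 10 partner and related transcription factors, Atf3 (1.60 ± 0.332) and Cebpb (1.18 ± 0.180) were higher and Nupr1 (-0.74 ± 0.222) was lower.

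Of 14 genes for serine, glycine, one-carbon and proline synthesis, 3 were higher and 3 lower, against 14.7% and 15.4% of all genes. The genes higher were Cbs (log2 1.86 ± 0.429) and Cth (1.73 ± 0.291), which turn homocysteine into cysteine, and Mthfd1l (1.67 ± 0.234), a mitochondrial folate enzyme. The genes lower were Aldh18a1 (-1.62 ± 0.185), which starts proline synthesis, Aldh1l2 (-1.26 ± 0.217), a mitochondrial folate dehydrogenase, and Gpt2 (-0.59 ± 0.106), a mitochondrial alanine aminotransferase. Cytosolic aminoacyl-tRNA synthetases charge tRNAs with amino acids. Of 12 tested, Nars (0.64 ± 0.0694) and Eprs (0.60 ± 0.0667) were called higher and none lower, against 14.7% and 15.4% of all genes. By adjusted p alone 11 of these 12 passed higher and 1 lower, against 34.8% and 33.3% of all genes.

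The ATF6 and XBP1 arms of the endoplasmic reticulum response run beside ATF4, and 6 of their 17 genes were called, close to the 30.1% of all genes. There were 2 higher, Dnajb9 (log2 0.72 ± 0.0794) and Xbp1 (0.71 ± 0.105), and 4 lower, Pdia4 (-1.11 ± 0.111), Hyou1 (-0.98 ± 0.123), Creld2 (-0.66 ± 0.101) and Sdf2l1 (-0.62 ± 0.150). By adjusted p alone 4 of the 17 passed higher and 10 lower, against 34.8% and 33.3% of all genes. Of 10 genes of the mitochondrial stress arm, none was called higher and 1 lower, Oma1 (-0.64 ± 0.101), the protease that relays mitochondrial stress to eIF2alpha. By adjusted p alone 6 of the 10 passed lower and none higher, against 33.3% and 34.8% of all genes and 68.1% in either direction. Of the 4 receptors of the secreted members that were tested, Ret, the signalling partner of the GDF15 receptor, was lower (-1.46 ± 0.206) and none was higher.

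With NMN, 22 of these 99 entries were called against Doxo alone, 6 higher and 16 lower, which is 22.2% against 17.1% of all genes. Of all genes, 8.17% were called higher and 8.88% lower. Amino acid transporters were called lower in 4 of 10, led by Slc7a11 (log2 -2.63 ± 0.613) and Slc38a2 (-0.93 ± 0.169), and higher in none. By adjusted p alone 7 of these 10 passed lower and 1 higher, against 27.4% and 25.7% of all genes. Other ATF4 or CHOP targets were called lower in 5 of 12, led by Tnfrsf10b (-1.81 ± 0.280) and Sqstm1 (-1.01 ± 0.209), and higher in none. By adjusted p alone 7 of these 12 passed lower and 1 higher. Ppp1r15a (-1.17 ± 0.162) was the only gene of the eIF2alpha list called, and Atf3 (-1.38 ± 0.338) and Batf3 (-1.37 ± 0.450) were the transcription factors called. Of the synthesis genes, Cbs (-1.25 ± 0.426), Cth (-1.22 ± 0.292) and Mthfd1l (-0.66 ± 0.231) were lower and Aldh18a1 (1.07 ± 0.185) was higher. No tRNA synthetase was called, while 6 of 12 passed lower and 1 higher by adjusted p alone, against 53% of all genes in either direction (27.4% lower and 25.7% higher). In the endoplasmic reticulum list Pdia4 (0.79 ± 0.112), Hyou1 (0.75 ± 0.124) and Sdf2l1 (0.74 ± 0.152) were higher and Xbp1 (-0.62 ± 0.107) was lower. By adjusted p alone 8 of the 17 genes of this list passed higher and 4 lower. Oma1 (0.60 ± 0.103) and Ret (0.77 ± 0.207) were higher.

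Against Ctrl, 9 of the 99 entries were called in Doxo-NMN hearts, 6 higher and 3 lower, which is 9.09% against 7.11% of all genes. Of all genes, 3.31% were called higher and 3.79% lower. Of the other ATF4 or CHOP targets 4 of 12 were higher, led by Herpud1 (0.95 ± 0.172) and Ddit4 (0.89 ± 0.227). Mthfd1l (1.01 ± 0.233) and Cebpb (0.66 ± 0.179) were also higher, and Aldh1l2 (-1.07 ± 0.215), Ret (-0.69 ± 0.200) and Nupr1 (-0.66 ± 0.221) lower. None of the 10 amino acid transporters was called (1 of 10 by adjusted p alone, against 26% of all genes).

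**Figure D4:**
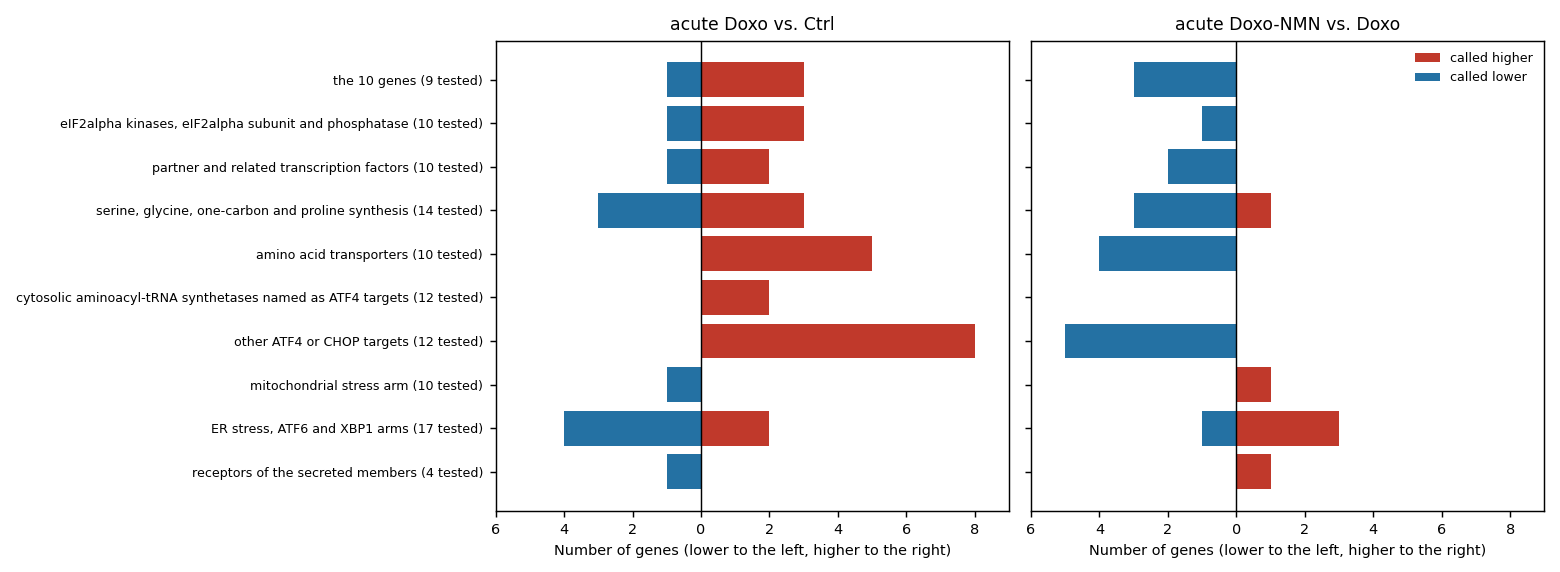
Bars give the number of genes of each list called lower (to the left) and higher (to the right) in acute Doxo vs. Ctrl and acute Doxo-NMN vs. Doxo, with the number tested beside each list. The list of other ATF4 or CHOP targets had 8 of 12 higher with Doxo and 5 of 12 lower with NMN, and the serine, glycine, one-carbon and proline list had 3 in each direction with Doxo.

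Some markers of other cell types also differed between these groups. In these bulk hearts fewer cells of a type and less RNA per cell cannot be told apart. Neutrophil markers were called higher in acute Doxo hearts in 5 of 5, and their summed level ran from 0.570 to 5.04 CPM in Ctrl, 1.55 to 328 CPM in Doxo and 3.12 to 31.6 CPM in Doxo-NMN. Red cell markers were called lower in 5 of 5, with sums of 437 to 4311 CPM in Ctrl, 1.19 to 338 CPM in Doxo and 0.209 to 2.81 CPM in Doxo-NMN. Of the fibroblast markers 3 of 5 were lower, with sums of 575 to 1118 CPM in Ctrl and 500 to 1344 CPM in Doxo. Of the cardiomyocyte markers, which defined all hearts at 26682 CPM or more in sum, 1 of 6 was higher and 2 were lower. Of the liver markers only Ttr was tested and it was higher, with sums of 0.166 to 0.757 CPM in Ctrl and 0.150 to 3.67 CPM in Doxo, and Serpina1a was at 0 in every Doxo heart. Of the other lists, 2 of 5 macrophage, 1 of 5 endothelial, 1 of 6 atrial, 1 of 3 adipocyte markers tested and the 1 lymphocyte marker tested were lower. Over all genes tested 14.7% were called higher and 15.4% lower, so several of these counts lay close to that share. By adjusted p alone, Cd68 (macrophage, log2 0.45), Pecam1 (endothelial, 0.39) and Dcn (fibroblast, 0.50) were higher, each below the fold threshold. Between Doxo-NMN and Doxo, 4 of 5 neutrophil and 5 of 5 red cell markers were lower, 3 of 5 fibroblast markers were higher and 1 lower, 2 of 6 cardiomyocyte markers, the macrophage marker Adgre1 (log2 1.10) and the adipocyte marker Plin1 (2.27) were higher, and the liver marker Ttr was lower (-1.02). Between Doxo-NMN and Ctrl, where Chac1 and Gdf15 were called, 4 of 5 neutrophil markers and Ttr were higher, and 5 of 5 red cell, 2 of 5 fibroblast, 1 of 5 macrophage and 1 of 5 endothelial markers were lower. Over all genes, 8.17% were called higher and 8.88% lower between Doxo-NMN and Doxo, and 3.31% and 3.79% between Doxo-NMN and Ctrl. The part of these markers in the differences of the members was not tested.

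In the chronic study none of the 9 members tested was called in any comparison at an adjusted p under 0.05. Over 14960 genes tested, 0.0602% were called between Doxo and Ctrl, 0% between Doxo-NMN and Doxo, and 0.0401% between Doxo-NMN and Ctrl. At an unadjusted p under 0.05 edgeR gave 0, 1 and 0 of the 9 members in these comparisons, against 1174, 441 and 707 of all genes, and DESeq2 also called 0 members in each. The median log2 fold changes over the members were 0.12, -0.14 and 0.01, against -0.000738, 0.00323 and 0.00536 over all genes. None of the 97 tested entries of the further lists was called in the chronic hearts, with edgeR or DESeq2.

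Atf4 had 89.8, 78.0, 81.3, 82.7 and 79.5 CPM in the 5 chronic Ctrl hearts. The lowest, median and highest were 72.5, 75.4 and 93.9 CPM in Doxo and 67.2, 83.5 and 95.1 CPM in Doxo-NMN, so all groups overlapped. Its Doxo difference was log2 -0.06 ± 0.0963 (adjusted p = 0.901, edgeR). Psat1 had 3.21, 3.83, 2.53, 2.82 and 1.64 CPM in Ctrl and 2.56 to 5.17 CPM in Doxo, with a difference of 0.23 ± 0.227. Chac1 had 3.10, 3.39, 3.93, 5.16 and 4.07 CPM in Ctrl and 3.69 to 9.76 CPM in Doxo, with a difference of 0.45 ± 0.302 (adjusted p = 0.716), the largest among the members. Phgdh was at 0.962 to 1.55 CPM in Ctrl and 0.704 to 1.53 CPM in Doxo, with a difference of 0.01 ± 0.263. Ddit3 was at 20.1 to 37.03 CPM in Ctrl, 21.1 to 24.0 CPM in Doxo and 24.0 to 37.2 CPM in Doxo-NMN. Its Doxo-NMN difference from Doxo, log2 0.26 ± 0.126, was the one member value at an unadjusted p under 0.05 (p = 0.0491, adjusted p = 0.999, edgeR). Of the 6 Doxo-NMN hearts, 5 lay above every Doxo heart in Ddit3 and 1 above every Ctrl heart. The Doxo differences of Ddit3 (log2 -0.19 ± 0.132), Trib3 (-0.04 ± 0.202), Asns (0.12 ± 0.268), Gdf15 (0.23 ± 0.258) and Mthfd2 (0.25 ± 0.233) did not pass. Mthfd2 lay above every Ctrl heart in 4 of 6 Doxo hearts and below every Ctrl heart in 1. Fgf21 had at most 4 counts in any chronic heart.

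**Figure D5:**
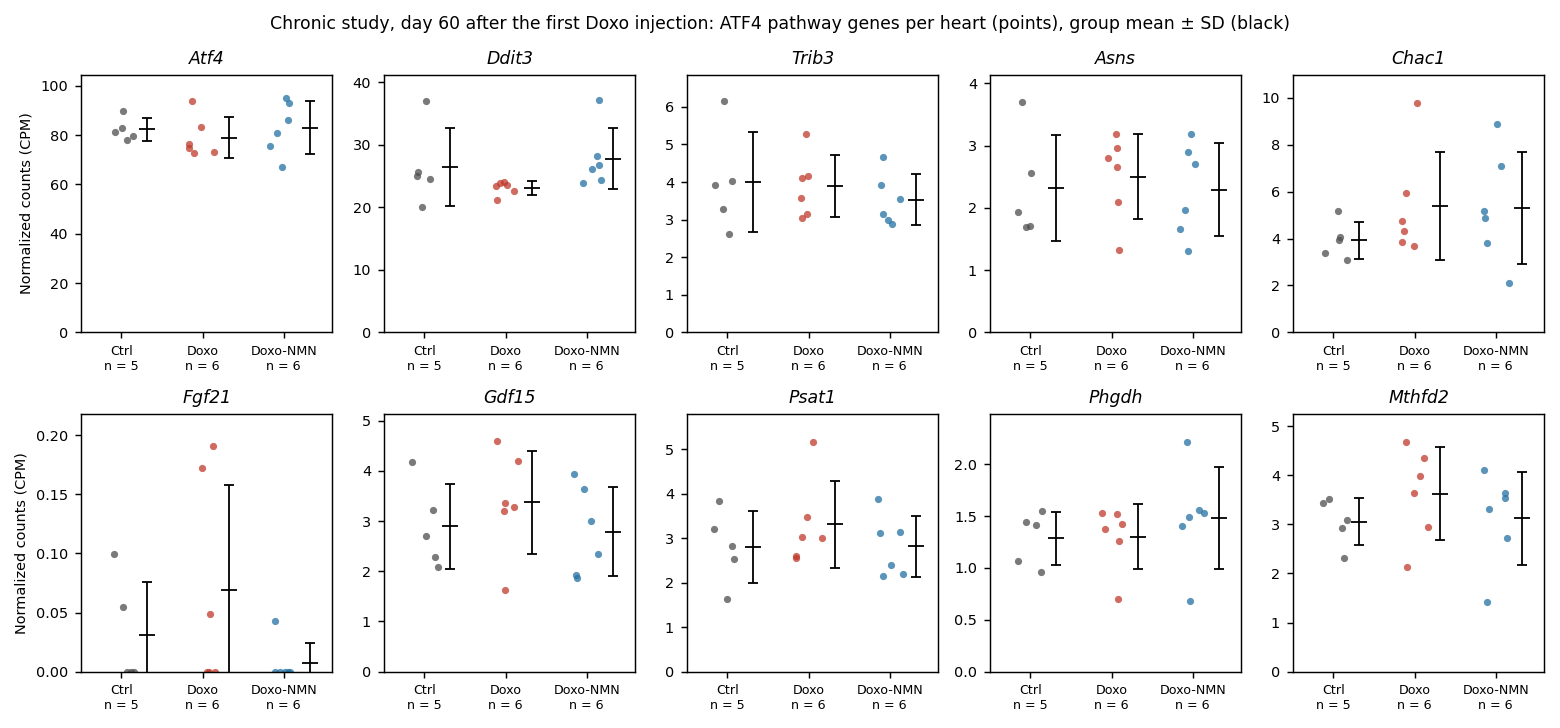
Each panel plots normalized counts (CPM, linear axis from 0) of 1 gene with 1 point per chronic heart in Ctrl (n = 5), Doxo (n = 6) and Doxo-NMN (n = 6), and the group mean ± SD in black (bars that would pass below 0 are cut there). Atf4 lay between 67.2 and 95.1 CPM in all 17 hearts, and no gene separated the groups fully, although Ddit3 was above every Doxo heart in 5 of 6 Doxo-NMN hearts.

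The difference between studies was tested directly as the Doxo effect in the acute study minus that in the chronic study, over 14965 shared genes. Atf4 differed by log2 1.52 ± 0.371 (adjusted p = 0.00714, edgeR) and Psat1 by 1.32 ± 0.474 (adjusted p = 0.0448, edgeR). These were 2 of 9 members, both higher in the acute study, against 19.3% of all genes called and 11% called higher. Chac1, with effects of 0.84 and 0.45, did not differ beyond the spread (0.38 ± 0.394, adjusted p = 0.502). Phgdh differed by -0.75 ± 0.321 (adjusted p = 0.0861) and Mthfd2 by -0.65 ± 0.291 (adjusted p = 0.102), neither passing the test. Ddit3 (0.61 ± 0.330), Gdf15 (0.50 ± 0.646), Asns (0.18 ± 0.325) and Trib3 (-0.26 ± 0.222) did not pass either. The call of Psat1 was lost, with differences of 1.08 to 1.35 and an adjusted p of at most 0.0891, on leaving out any of 23 hearts. These were acute Ctrl replicates 1, 2, 3, 4, 6, 7, 9, 10, 12 and 13, acute Doxo replicates 4, 5, 8 and 13, chronic Ctrl replicates 1, 2, 3 and 4 and chronic Doxo replicates 1, 3, 4, 5 and 6. Without acute Doxo replicate 6 the difference of Phgdh passed (-0.83, adjusted p = 0.0386), and without chronic Doxo replicate 2 that of Mthfd2 did (-0.76, adjusted p = 0.0476, edgeR). The day after Doxo, dose schedule, age and supplier of the mice and sequencing site changed together between the studies and cannot be told apart.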

How the data were processed

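RNA was measured by poly(A)-selected RNA-seq of single mouse hearts. The authors deposited 1 table of raw counts per gene for each study, made, per the submitters' processing notes, with STAR 2.7.3a and featureCounts 2.0.0, and per the methods of the study on mm10. Whether counting used strand is not given in the sources used here. Groups came from the labels. Among counts of 1 to 20, the median acute heart had 73.6% even values and the median chronic heart 40.3%, so acute totals may overstate depth, and acute counts were also tested after division by 2.

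The deposited counts were tested with edgeR 4.0.16 (R 4.3.3; quasi-likelihood, TMM, filterByExpr), with the 3 groups of a study in 1 fit and Benjamini-Hochberg adjustment. Calls needed an adjusted p under 0.05 and, in the acute study, a fold change of at least 1.5, the thresholds the study applied to its acute comparisons. The script was tested on simulated data. Alternatives were DESeq2 1.42.0, RLE scaling, no filter on low counts, a minimum of 10 counts in all hearts, the 2 groups compared alone, a replicate block, Myl4 as a covariate or a split at 100 CPM, no fold threshold, halved counts, and leaving out each heart. Each heart is 1 mouse. No libraries were identical (lowest chi-square per gene 10.4 and 5.49).

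The 10 genes and all lists were chosen with earlier results of these data known. Every member tested is named in each acute comparison, in chronic Doxo vs. Ctrl and in the acute minus chronic effect. The chronic Doxo-NMN comparisons do not name each of them. Of each other list, at most the 2 called genes with the largest rise and the 2 with the largest fall are named. Those needed where a count was 5 or fewer are added. Exon lengths came from GENCODE M21 (GRCm38).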

Additional observations from a re-analysis of the deposited data

Results flagged for a closer look

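In the chronic study 3 hearts stood apart from the others of their group, in 5 combinations of a member and a group, by the gap to the nearest heart as a share of the group's range (Dixon's criterion). Chac1 at 9.76 CPM and Psat1 at 5.17 CPM were both highest in Doxo replicate 2, Phgdh was lowest in Doxo replicate 6 at 0.704 CPM, and Ddit3 was highest in Doxo-NMN replicate 5 at 37.2 CPM. In Fgf21, Doxo-NMN replicate 5 had 0.0427 CPM, which is 1 count, where the other 5 hearts had none. These came from 30 such combinations, of which chance flags about 1 in 20. The groups of the acute study were too large for this criterion.

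The effect of Doxo differed between the acute and the chronic study, by an interaction test, for Atf4 (log2 1.52, adjusted p = 0.00714, edgeR) and Psat1 (log2 1.32, adjusted p = 0.0448, edgeR). The call of Psat1 was lost on leaving out any of 23 of the 38 hearts and with the replicate block (0.96, adjusted p = 0.146, edgeR).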

How the results depend on the processing

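No member's called difference changed direction under any alternative run. A value not called in either fit was counted as moved when it shifted by more than 1 SE. Between acute Doxo and Ctrl, where 4 members were called, 7 were called with no fold threshold and 2 within hearts low in Myl4, and 4 to 4 without each heart in turn. Between acute Doxo-NMN and Doxo, where 3 were called, 1 was within hearts high in Myl4, and 2 to 3 without each heart. Between acute Doxo-NMN and Ctrl, where 2 were called, 1 was called with no low-count filter, 1 with the replicate block, 1 with Myl4 as a covariate, 0 within hearts low in Myl4, 1 within hearts high in Myl4, and 1 to 2 without each heart. For the acute minus chronic effect, where 2 were called, 1 was called with the replicate block and 1 to 3 without each heart. Chronic counts stayed at 0. The cause of these changes was not tested.

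The labels do not say whether hearts with the same replicate number share anything else. Their deviations from the group means correlated at -0.624 to 0.584 (median 0.0605, 39 acute pairs) and -0.255 to 0.409 (median 0.0223, 16 chronic pairs). With this spread, a batch shared by some of these hearts cannot be told. With the replicate block, Asns in Doxo-NMN vs. Doxo was -0.58, Gdf15 in Doxo-NMN vs. Ctrl 0.66 (adjusted p = 0.127) and Psat1 in the acute minus chronic effect 0.96 (adjusted p = 0.146), and the block changed no other call. Fgf21 could be tested only without the filter, where the acute Doxo difference did not pass (adjusted p = 0.614, edgeR). Depth limits Fgf21 and, at 16 to 77 counts in acute Doxo hearts, Phgdh.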
